A study of Mus musculus with 6 samples.

Results

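The 10 genes described here encode integrin subunits known from blood cells, namely the α subunits Itga4, Itga6, Itgam, Itgal, Itgax, Itgae and Itga2b and the β subunits Itgb1, Itgb2 and Itgb7. They were taken by symbol from a table of 24672 mouse genes, in which all 10 were found. They were chosen by name with their FPKM values in this table already known, and it is not recorded whether the levels or the differences between the groups weighed more. Both are therefore given as a description, without p-values.

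RNA sequencing compared cultured C57BL/6 cells labelled female germline stem cells (FGSC, 3 libraries) with cells of the same kind after induced differentiation (Dif-FGSC, 3 libraries), all from beyond passage 20. FGSC had been kept on mitotically inactivated STO fibroblasts with 10 ng/mL LIF, 20 ng/mL EGF, 10 ng/mL bFGF and 10 ng/mL GDNF. Dif-FGSC had been moved to inactivated granulosa cells with 10 ng/mL bFGF, 10 ng/mL BMP4 and 0.1 μmol/L retinoic acid, without LIF, EGF or GDNF in the listed medium. Both media held 10% fetal bovine serum. The feeder cells, the growth factors, BMP4 and retinoic acid thus changed together, and their parts cannot be told apart. The series title names meiosis initiation by retinoic acid and remodelling of chromatin as its subject. In the deposited table the FGSC columns carry the prefix con, and every direction below rests on that assignment.

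Integrins are receptors made of 1 α and 1 β chain that span the cell membrane and join the matrix or a neighbouring cell to the cytoskeleton. The β chain sets the family. Itgb2 pairs with Itgal, Itgam and Itgax on leukocytes, Itgb7 pairs with Itga4 and Itgae on lymphocytes and mast cells, and Itgb1 pairs with many α chains, Itga4 and Itga6 among them. Blood cells carry integrins mostly in a resting state, and signals from inside the cell switch them on through talin and kindlin, which bind the β tail. In the germ line, Itga6 and Itgb1 are used as surface markers of spermatogonial stem cells, while the Itgb2 and Itgb7 families are known from blood cells.

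The labels were set against cell type markers first. Of 12 germ cell markers 8 stayed below 0.1 FPKM (sequenced fragments scaled to transcript length and to library size) in every library, and Dazl, Nanos3, Gfra1 and Sycp3 were listed at 0 in all 6. Their summed level was 0.0317 to 0.253 FPKM in FGSC and 0.606 to 1.03 in Dif-FGSC. Most of the Dif-FGSC sum came from Zbtb16, listed at 0 in all 3 FGSC libraries and at 0.433, 0.478 and 0.749 FPKM in Dif-FGSC. All 9 markers of blood cells at large were above the level of 1 FPKM used for testing, with sums of 626 to 653 and 712 to 722 FPKM. The labelled cell type was thus not borne out by its markers, and the groups are called by their labels only. Sums for the feeder cells were low, at 1.02 to 1.08 and 0.469 to 0.535 FPKM for 11 fibroblast markers (Col3a1 and Lum at 0) and at 0.663 to 0.843 and 0.474 to 0.674 for 9 granulosa markers (Foxl2, Fshr, Inha and Cyp19a1 at 0). The spacing of the low FPKM values implied 17.3 to 27 M fragments a library.

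**Figure D1:**
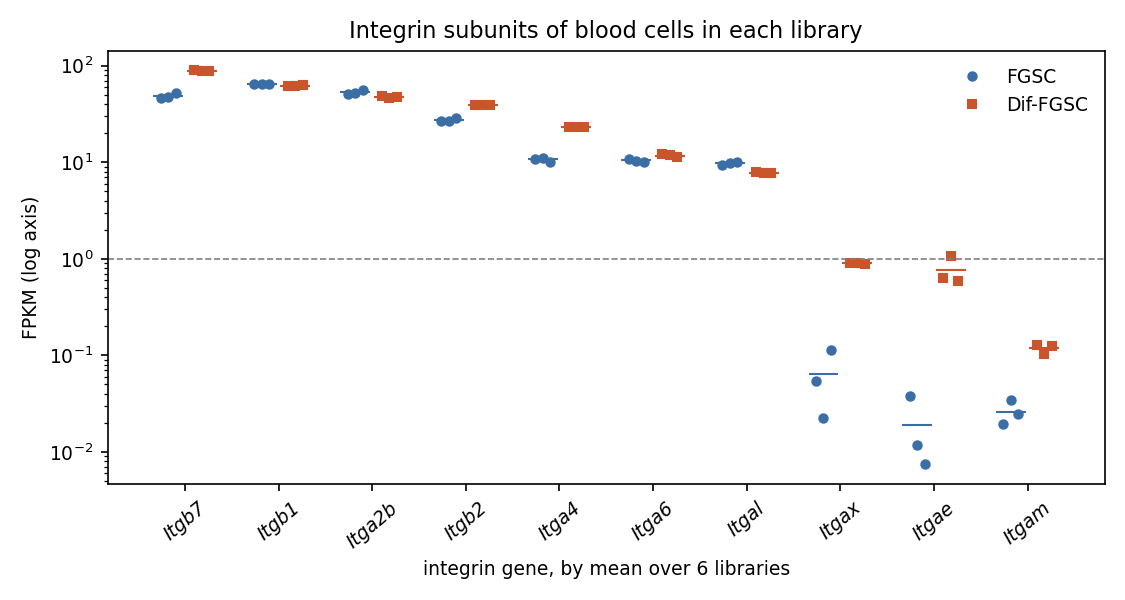
FPKM of the 10 integrin genes in each library on a log axis, with circles for the 3 FGSC and squares for the 3 Dif-FGSC libraries and a line at each group mean. The dashed line marks 1 FPKM; 7 genes lie well above it in both groups, and Itgax, Itgae and Itgam lie near or below it, lowest in FGSC.

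Itgb1, Itgb7, Itga2b and Itgb2 were the integrin genes with the highest levels. In FGSC the order was Itgb1 (mean 65.0 FPKM), Itga2b (53.0), Itgb7 (48.8), Itgb2 (27.5), Itga4 (10.7), Itga6 (10.4) and Itgal (9.70), followed by Itgax (0.0635), Itgam (0.0261) and Itgae (0.0191). In Dif-FGSC, Itgb7 (88.3 FPKM) stood first, ahead of Itgb1 (62.0), Itga2b (47.1), Itgb2 (39.1), Itga4 (23.3), Itga6 (11.7) and Itgal (7.78), with Itgax (0.900), Itgae (0.764) and Itgam (0.118) last. Within FGSC the ranges of the 3 libraries overlapped between the neighbours Itga2b and Itgb7, Itga4 and Itga6, Itgax and Itgam, and Itgam and Itgae. Within Dif-FGSC they overlapped between Itgax and Itgae alone. Over all 6 libraries Itgb7 and Itgb1, Itga4 and Itga6, Itgax and Itgae, and Itgae and Itgam overlapped. By mean over the 6 libraries Itgb7 ranked 944th and Itgb1 1020th among the 24672 genes, and Itgam ranked 11162nd.

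A level can be compared between genes only as far as the table treats them alike. The values of Itga6, Itgal and Itgam carry more than 6 significant digits, and those of the other 7 genes do not. Among genes at a mean of 1 FPKM or more, 81.7% of 4084 genes with 2 or more curated RefSeq transcripts had such values, against 3.04% of 4764 genes with 1. A mean of several values of 6 digits has this form. Itgax and Itgae have 3 and 2 such transcripts, and a value of 6 digits does not show that it is no mean. Whether the values of Itga6, Itgal, Itgam, Itgax and Itgae are means over transcripts is not stated in the sources used here. Such a mean would be lower than the sum over transcripts.

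Upstream sequence is shown for 4 of the genes, to set the 2 members with the largest differences among those tested (Itga4 and Itgb7) and the low gene Itgax beside Itgb1, whose level differed least. RefSeq promoter entries (GRCm38.p6) matched 6 of the 10 genes, namely Itga4, Itgam, Itgax, Itga2b, Itgb1 and Itgb7. Each sequence is the 200 bases before the annotated start, written 5′ to 3′ on the gene's strand, at chr2:79255226-79255425 on the plus strand for Itga4, chr15:102231936-102232135 on the minus strand for Itgb7, chr7:128129350-128129549 on the plus strand for Itgax and chr8:128685454-128685653 on the plus strand for Itgb1. Capitals mark matches on either strand to 5 motifs. These were GAGGAA for the factor PU.1, TGTGGT for RUNX factors, AGATAA for factors of the GATA family, TGANTCA for the dimer AP-1 and, for the factor Sp1, GGGCGG, and no printed match overlaps another.
Itga4: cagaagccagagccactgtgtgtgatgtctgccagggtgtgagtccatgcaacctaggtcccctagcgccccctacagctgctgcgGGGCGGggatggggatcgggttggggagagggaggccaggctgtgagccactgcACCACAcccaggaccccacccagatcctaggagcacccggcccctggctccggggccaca
Itgb7: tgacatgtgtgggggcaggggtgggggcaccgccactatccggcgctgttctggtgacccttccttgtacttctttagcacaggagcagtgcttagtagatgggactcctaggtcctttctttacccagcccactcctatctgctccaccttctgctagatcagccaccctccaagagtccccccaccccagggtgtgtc
Itgax: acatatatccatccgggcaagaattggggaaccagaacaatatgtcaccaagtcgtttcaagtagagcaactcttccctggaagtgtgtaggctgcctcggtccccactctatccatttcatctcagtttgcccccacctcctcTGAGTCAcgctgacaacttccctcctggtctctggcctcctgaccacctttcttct
Itgb1: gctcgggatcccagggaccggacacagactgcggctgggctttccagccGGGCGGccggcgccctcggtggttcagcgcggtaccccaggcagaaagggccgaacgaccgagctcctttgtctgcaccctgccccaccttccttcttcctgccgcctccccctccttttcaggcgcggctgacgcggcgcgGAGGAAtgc
The window of Itga4 held an Sp1 match beginning 114 bases and a RUNX match beginning 60 bases before the start, and that of Itgax an AP-1 match beginning 56 bases before it. In Itgb1 an Sp1 match began at 151 and a PU.1 match at 9 bases. Motifs were searched over 250 bases before the start, where Itgax also held a GATA match beginning at 217 bases, outside the printed stretch. None of the 5 motifs matched in Itgb7. Among 32851 promoter windows of 250 bases, 23.3% held the PU.1 letters, 14.0% the RUNX, 9.99% the GATA, 6.75% the AP-1 and 32.7% the Sp1 letters. A match describes the letters and is no evidence of binding.

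Itga4 encodes the α4 chain, which binds VCAM-1 and fibronectin with β1 and MAdCAM-1, the homing ligand of gut vessels, with β7. It was listed at 10.8, 11.1 and 10.1 FPKM in FGSC and at 23.3, 23.1 and 23.4 in Dif-FGSC. The lowest Dif-FGSC library stood at 2.08 times the highest FGSC library. The group means were 10.7 ± 0.492 and 23.3 ± 0.165 FPKM (SD, n = 3 each), a ratio of 2.18. On the log2(FPKM + 1) scale used for all tests, which understates the change of low genes, the difference was 1.06 ± 0.039 (SE), larger in size than that of 97.5% of the 9162 genes tested.

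Itgb7, the β partner of Itga4 and Itgae, was listed at 46.0, 47.8 and 52.8 FPKM in FGSC and at 89.3, 88.3 and 87.3 in Dif-FGSC. The groups were far apart, and replicate 3 was the highest FGSC library. Means were 48.8 ± 3.52 and 88.3 ± 0.988 FPKM (SD, n = 3 each), a ratio of 1.81 and a log2 difference of 0.84 ± 0.049 (SE). Its size exceeded that of 95.8% of tested genes.

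Itgae, the αE chain that with β7 binds E-cadherin on epithelium, was listed at 0.0380, 0.0118 and 0.00746 FPKM in FGSC, an estimated 3.9, 0.99 and 0.50 fragments. In Dif-FGSC it was listed at 0.637, 1.06 and 0.591 FPKM, an estimated 55.0, 79.5 and 44.7 fragments. By these estimates the FGSC libraries lay near or below a floor of 3 fragments and the Dif-FGSC libraries well above it, with replicate 2 highest. The estimates would be too low if the listed values are means over transcripts, and no fold is given. Itgae is also a marker of mucosal T cells. Of 13 T and B cell markers 10 stayed below 0.1 FPKM in every library, with sums of 0.254 to 0.462 FPKM in FGSC and 0.379 to 0.466 in Dif-FGSC, and Cd3e, Cd4, Cd8a, Cd8b1, Cd79b, Ms4a1 and Cd2 were listed at 0 in all 6.

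Itgb2, the common β chain of the leukocyte integrins, was listed at 26.7, 27.0 and 28.9 FPKM in FGSC and at 39.3, 39.1 and 38.9 in Dif-FGSC. The Dif-FGSC libraries differed from each other by less than 1 FPKM and all lay above the FGSC libraries. The log2 difference was 0.49 ± 0.037 (SE), a ratio of means of 1.42. Its α partner Itgal, which with β2 forms LFA-1, the receptor for ICAMs, went the other way. Itgal was listed at 9.26, 9.72 and 10.1 FPKM in FGSC and at 7.86, 7.82 and 7.65 in Dif-FGSC, without overlap, and the log2 difference was -0.29 ± 0.042 (SE).

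The other α partners of Itgb2 were low in both groups. Itgax, the αX chain known from dendritic cells and macrophages, was listed at 0.0543, 0.0226 and 0.114 FPKM in FGSC and at 0.901, 0.911 and 0.889 in Dif-FGSC. By the estimated depth this is 5.9, 2.0 and 7.9 fragments in FGSC, and 81.9, 71.7 and 70.7 in the others. By these estimates Itgax was just above the floor in 2 FGSC libraries and below it in the other. The estimates would be too low if the listed values are means over transcripts. Itgam, the αM chain of myeloid cells and part of complement receptor 3, was listed at 0.0195, 0.0341 and 0.0246 FPKM in FGSC and at 0.128, 0.103 and 0.124 in Dif-FGSC. Its estimated fragments numbered 2.5, 3.5 and 2.0 in the former and 13.4, 9.4 and 11.4 in the latter. All 3 genes below the filter, Itgae, Itgax and Itgam, had groups that did not overlap with Dif-FGSC higher, which also held for 22.5% of 2281 untested genes with a mean of 0.05 to 1 FPKM.

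Markers of the myeloid cells in which Itgax and Itgam are best known were mixed. Of 14 dendritic cell and macrophage markers 9 stayed below 0.1 FPKM in every library and Cd209a, Clec9a and C1qa were listed at 0. Their sum was lower in Dif-FGSC, at 15.4 to 16.7 FPKM against 27.3 to 28.3 in FGSC, and Adgre1, the antigen F4/80, which made up most of it in FGSC, fell from 20.3 to 4.28 FPKM. Batf3, a transcription factor of dendritic cells, also fell, but its call was lost without FGSC replicate 1 or 3 or Dif-FGSC replicate 1 or 3 (limma adjusted p = 0.0873 to 0.135). Cd74, the invariant chain of antigen presentation, rose from 0.727 ± 0.213 to 2.55 ± 0.337 FPKM and Cd68, a lysosomal protein of macrophages, from 3.19 to 6.19. All 8 neutrophil markers stayed below 0.1 FPKM in every library, with Elane, S100a8 and S100a9 at 0 in all 6 and sums of at most 0.00425 FPKM in FGSC and 0.09 in Dif-FGSC. In bulk RNA a change in the share of cells of a type and a change in RNA per cell cannot be told apart, and the part of other cells in these low values was not tested.

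Itgb1, the most widely used β chain, differed least. It was listed at 65.0, 64.7 and 65.3 FPKM in FGSC and at 61.5, 61.8 and 62.6 in Dif-FGSC. The groups did not overlap, but the gap between their nearest libraries was 2.06 FPKM. The log2 difference was -0.07 ± 0.025 (SE), smaller in size than that of most genes tested. Itga6, a laminin receptor chain that pairs with β1, was listed at 10.9, 10.3 and 10.2 FPKM in FGSC and at 12.1, 11.8 and 11.3 in Dif-FGSC. Its log2 difference was 0.16 ± 0.041 (SE).

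Itga2b, the αIIb chain known from platelets and blood progenitors, was listed at 51.4, 52.1 and 55.4 FPKM in FGSC and at 48.3, 46.2 and 46.8 in Dif-FGSC. It was the most abundant α chain in both groups, and the Dif-FGSC libraries all lay lower, by a log2 difference of -0.17 ± 0.037 (SE). Its partner Itgb3 is not among the 10 genes and is given below. Of 13 megakaryocyte and platelet markers 5 stayed below 0.1 FPKM in every library and Gp1bb, Gp6 and Treml1 were listed at 0 in all 6. The summed level was 38.0 to 43.1 FPKM in FGSC and 38.5 to 40.5 in Dif-FGSC, mostly from the transcription factor Fli1 (29.1 and 29.5 FPKM), which other blood cells also express. Pf4, a platelet chemokine, fell from 2.95 ± 1.18 to 1.36 ± 0.658 FPKM, a call that was lost without FGSC replicate 1 or 3 or Dif-FGSC replicate 2 or 3 (limma adjusted p = 0.107 to 0.133).

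**Figure D2:**
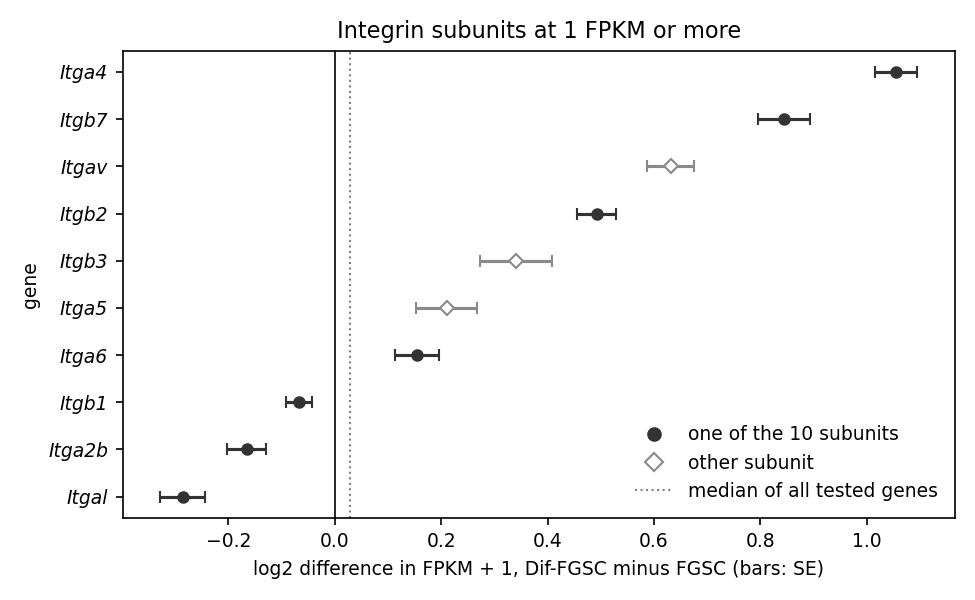
Log2 differences in FPKM + 1 (Dif-FGSC minus FGSC, with SE) of the 10 integrin subunit genes at a mean of 1 FPKM or more, filled for the 7 described above and open for Itgav, Itgb3 and Itga5. Itga4 and Itgb7 lie farthest to the right at 1.06 and 0.84, and Itgal, Itga2b and Itgb1 lie left of 0.

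In all, 7 of the 10 genes reached the mean of 1 FPKM required for testing. By limma with Benjamini-Hochberg adjustment over all genes (adjusted p under 0.05), 4 of the 7 were past the threshold with Dif-FGSC higher (Itga4, Itga6, Itgb2 and Itgb7) and 3 with Dif-FGSC lower (Itgal, Itga2b and Itgb1). Of all 9162 genes tested, 36.5% were called higher and 28.6% lower. Groups without overlap were found for all 7, where 39.6% of tested genes had Dif-FGSC wholly higher and 31% wholly lower. Because the 10 genes were chosen with results known, nothing is read from their count. The median log2 difference of the 7 tested was 0.16, beside 0.03 over all tested genes, and leaves out Itgax, Itgae and Itgam. Itga6 was no longer past the threshold after quantile normalization (log2 difference 0.06). Itgb1 was no longer past it with any 1 of the 6 libraries left out, at differences of -0.06 to -0.07, or with a replicate block.

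The summed level of the 3 β genes moved more than that of the 7 α genes. The β sum was 138 to 147 FPKM in FGSC and 189 to 190 in Dif-FGSC, and the α sum 82.5 to 85.9 and 90.8 to 93.2. Neither sum overlapped between the groups. Such sums give the α genes less than their full weight if values of Itga6, Itgal, Itgam, Itgax or Itgae are means over transcripts.

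Ratios of an α gene to a β partner do not depend on a single scale factor for the library, but can change with quantile normalization. Those with Itga6, Itgal, Itgam, Itgax or Itgae would be understated if the values of these genes are means over transcripts. The ratio of Itga4 to Itgb1 was 0.167, 0.172 and 0.155 in FGSC and 0.379, 0.374 and 0.374 in Dif-FGSC. The ratio of Itga4 to Itgb7 moved less, from 0.220 ± 0.0241 to 0.264 ± 0.00405 (SD, n = 3 each), with both genes higher in Dif-FGSC. Itgal to Itgb2 went from 0.353 ± 0.00671 to 0.199 ± 0.00209, the only one of these 4 ratios that was lower in Dif-FGSC. Itga6 to Itgb1 stood at 0.161 ± 0.00577 and 0.190 ± 0.00815. For the low genes the ratio stayed below 0.025 in every library, at 0.00227 and 0.0230 for Itgax to Itgb2, 0.00095 and 0.00302 for Itgam to Itgb2 and 0.00041 and 0.00865 for Itgae to Itgb7. These are ratios of RNA, and the pairs that formed at the surface were not measured.

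**Figure D3:**
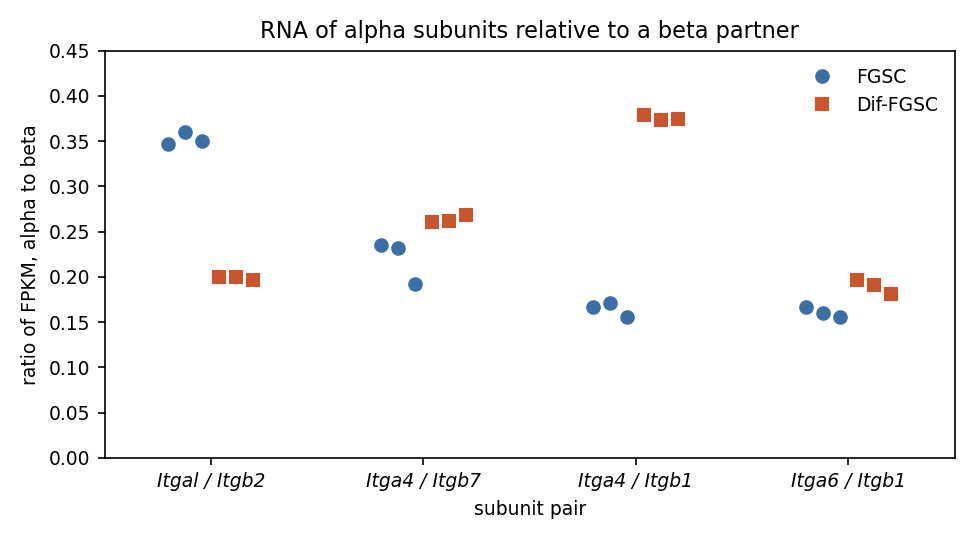
Ratio of FPKM between an α gene and a β gene it is known to pair with, with circles for the 3 FGSC and squares for the 3 Dif-FGSC libraries, on an axis from 0. Itga4 to Itgb1 stands near 0.16 in FGSC and near 0.38 in Dif-FGSC, while Itgal to Itgb2 falls from about 0.35 to about 0.20.

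Of 16 other integrin subunit genes, 3 reached the filter and all 3 rose in Dif-FGSC, where 36.5% of all tested genes rose. Itgav, the αV chain of vitronectin receptors, was listed at 6.62, 5.98 and 6.42 FPKM in FGSC and at 10.4, 10.5 and 10.2 in Dif-FGSC (log2 difference 0.63 ± 0.044 SE, limma adjusted p = 1.53e-05). Itgb3, the β partner of both Itgav and Itga2b, was listed at 14.9, 15.4 and 18.2 FPKM and at 20.6, 20.9 and 20.6 (0.34 ± 0.068, limma adjusted p = 0.00315). Replicate 3 was again the highest FGSC library. Itga5, the fibronectin receptor chain, rose from 1.97 ± 0.0284 to 2.44 ± 0.210 FPKM with a limma adjusted p of 0.0134, which became 0.0647 after quantile normalization. Itga2b and Itgb3, the 2 chains of the platelet fibrinogen receptor, thus differed in opposite directions.

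The remaining 13 subunits were below the filter. Itga10, a collagen receptor chain, stood at 1.09 ± 0.0583 and 0.524 ± 0.0188 FPKM, Itgb6 at 0.0515 and 0.0701, and 12 of the 16 stayed below 0.1 FPKM in every library. Itga1, Itgb4 and Itgb8 were listed at 0 in all 6. Itgad, which lies directly beyond Itgax and Itgam in the gene order of mouse chromosome 7 with no protein-coding gene starting between neighbours, did not exceed 0.0763 FPKM. It was listed at 0 in 1 FGSC and 2 Dif-FGSC libraries. The summed level of the 16 was 24.7 to 27.8 FPKM in FGSC and 33.9 to 34.6 in Dif-FGSC, far below that of the 10 genes.

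Genes whose values ran most like those of Itga2b and Itgb7, the α and β genes with the highest mean over the 6 libraries, were named by Pearson correlation of log2(FPKM + 1) over the 6 libraries. For Itga2b these were Tmx1 (r = 0.998), Ndufa2 (r = 0.997) and Sp4 (r = 0.996). For Itgb7 they were Plxnb2 (r = 0.9998), Itgb2 (r = 0.9998) and Pdrg1 (r = 0.9998). Itgb1 stood above Itgb7 in FGSC, and their ranges over the 6 libraries overlapped. All of these correlations share the same 6 libraries in 2 groups, and the values are given as a description.

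The other genes of integrin function were taken in 7 lists of 149 symbols, of which 148 were in the table and 81 were tested, the other subunits included. Of these, 50 were higher in Dif-FGSC, 14 were lower and 17 were not called, where 36.5% of all tested genes were called higher and 28.6% lower. The median log2 difference was 0.18, beside 0.03 over all tested genes.

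Among the switches that turn integrins on or off, 9 of 21 tested genes rose and 6 fell, close to the shares of 36.5% and 28.6% over all tested genes, and the median log2 difference was 0.04. Fermt3, which encodes kindlin-3, the kindlin of blood cells, was listed at 47.1, 47.3 and 44.3 FPKM in FGSC and at 83.1, 82.9 and 81.5 in Dif-FGSC (log2 difference 0.82 ± 0.033 SE, limma adjusted p = 1.47e-06). Tln1, talin, was listed at 52.1, 53.6 and 57.0 FPKM and at 91.9, 93.1 and 88.5 (0.74 ± 0.040, limma adjusted p = 4.74e-06). Both β-tail binding activators were thus higher in every Dif-FGSC library.

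Genes of the small GTPase Rap1, which recruits talin to integrins, were split. Rasgrp2, a calcium-regulated exchange factor that loads Rap1 in platelets and neutrophils, was listed at 6.42, 7.10 and 6.08 FPKM in FGSC and at 1.19, 1.51 and 1.47 in Dif-FGSC. Its log2 difference of -1.66 ± 0.073 (SE) was the largest fall among the 81 genes (limma adjusted p = 2.14e-06). Rap1b, the more abundant Rap1 gene, fell from 168 ± 2.76 to 148 ± 1.56 FPKM and Rap1a from 61.1 ± 2.22 to 40.3 ± 0.771. Rapgef2, another exchange factor for Rap, rose from 3.02 ± 0.183 to 5.56 ± 0.247 FPKM, and Apbb1ip, the adaptor RIAM between Rap1 and talin, from 32.0 ± 0.905 to 40.2 ± 0.698.

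**Figure D4:**
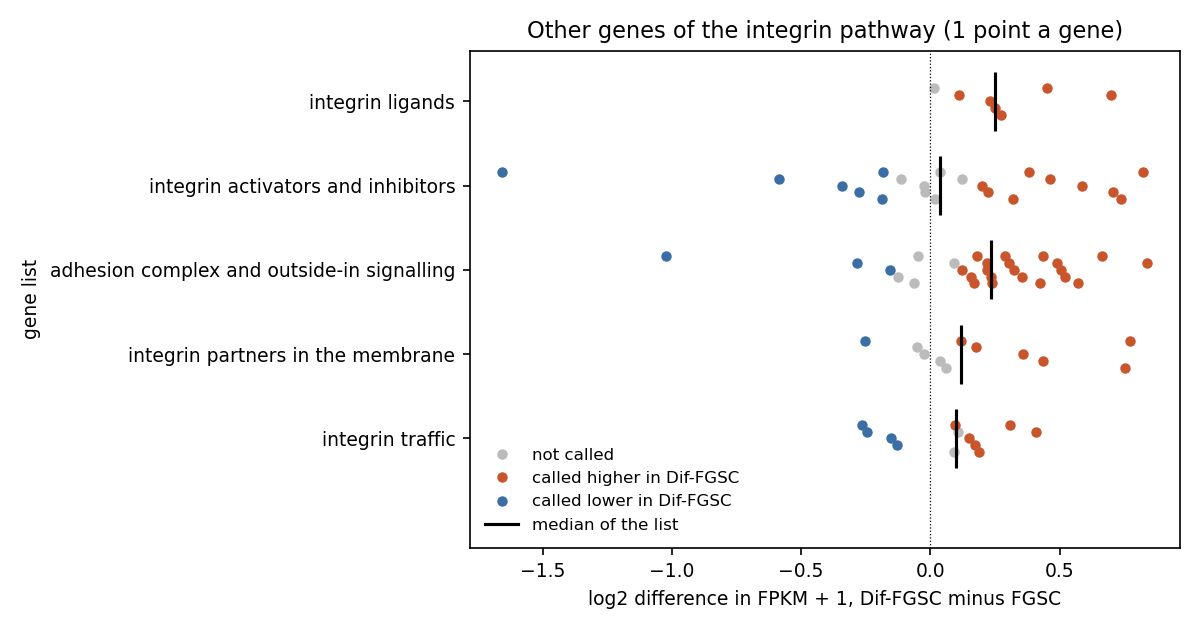
Log2 differences in FPKM + 1 (Dif-FGSC minus FGSC) of the tested genes of 5 lists of integrin function, 1 point a gene, coloured by call, with a bar at each list's median. Most points of the adhesion complex list lie right of 0, while the activators and inhibitors lie on both sides, with Rasgrp2 at -1.66.

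Of 27 tested adhesion complex and signalling genes 20 rose, 3 fell and 4 were not called, beside 36.5% higher and 28.6% lower over all tested genes. Their median log2 difference was 0.23. Git1, a scaffold that binds paxillin, was listed at 27.9, 27.5 and 26.9 FPKM in FGSC and at 50.3, 50.2 and 49.4 in Dif-FGSC (0.84 ± 0.028 SE, limma adjusted p = 6.40e-07). Lpxn, which encodes leupaxin, a relative of paxillin in blood cells, rose from 22.9 ± 1.61 to 36.8 ± 1.00 FPKM and Zyx, the actin-binding protein zyxin, from 7.00 ± 0.524 to 10.9 ± 0.267. Rac1, a GTPase of cell spreading and the most abundant of the list, rose from 99.1 ± 4.23 to 117 ± 1.28 FPKM. In the opposite direction Rsu1, a partner of the integrin-linked kinase complex, was listed at 48.9, 49.3 and 47.4 FPKM in FGSC and at 24.2, 22.8 and 23.1 in Dif-FGSC (-1.02 ± 0.034 SE, limma adjusted p = 6.27e-07). Rsu1 was thus more than halved while Ilk, the kinase itself, was not called (30.8 and 29.7 FPKM), though it fell past the threshold after quantile normalization (limma adjusted p = 0.0325).

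Among ligands, 7 of 33 genes were tested, of which 6 rose and none fell, beside 36.5% and 28.6% of all tested genes, with a median log2 difference of 0.25. The counter-receptors of Itgal and Itgb2 were present. Icam1 rose from 19.1 ± 0.313 to 22.6 ± 0.596 FPKM, Icam2 from 13.8 ± 0.266 to 16.9 ± 0.721 and Icam4 from 4.81 ± 1.06 to 8.34 ± 0.588. Icam5 rose from 1.43 ± 0.170 to 1.89 ± 0.0772 FPKM, and Lama5, a laminin chain of basement membranes, from 26.6 ± 4.09 to 36.6 ± 1.25. Spp1, osteopontin, which α4β1 also binds, stood at 2.40 ± 0.757 and 2.38 ± 0.203 FPKM and was not called. Of other ligands of the α4 and αE chains, Vcam1 did not exceed 0.0148 FPKM, Madcam1 0.0252, Fn1, fibronectin, 0.00327 and Cdh1, E-cadherin, 0.0130 in any library.

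Of 11 tested genes for proteins that sit beside integrins in the membrane, 6 rose, 1 fell and 4 were not called, beside 36.5% higher and 28.6% lower over all tested genes. Their median log2 difference was 0.12. Cd44, the hyaluronan receptor, rose from 4.42 ± 0.290 to 8.25 ± 0.218 FPKM by limma at an adjusted p of 1.07e-05. Plaur, the urokinase receptor, went from 16.9 ± 0.881 to 29.2 ± 2.03 (limma adjusted p = 2.54e-05). The leukocyte tetraspanins Cd37 and Tspan32 rose by log2 differences of 0.44 and 0.36. Bsg, basigin, the most abundant of the list, fell from 175 ± 4.50 to 146 ± 1.45 FPKM.

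Of 12 tested genes of integrin traffic 6 rose, 4 fell and 2 were not called, where 36.5% of all tested genes rose and 28.6% fell. Their median log2 difference was 0.10. Snx27, a sorting nexin of recycling, rose from 4.03 ± 0.142 to 5.68 ± 0.195 FPKM and Arf6, a GTPase of β1 recycling, from 63.0 ± 2.32 to 78.3 ± 2.55. Rab11a, the GTPase of the recycling endosome, fell from 49.2 ± 2.09 to 40.8 ± 1.09 FPKM and Hax1, which takes part in uptake of αVβ6, from 30.7 ± 0.141 to 25.8 ± 0.474. Snx17, which binds β1 tails, stood at 71.4 ± 1.86 and 76.4 ± 1.87 FPKM (limma adjusted p = 0.0311) and lost its call with median-ratio scaling (limma adjusted p = 0.173). The call was also lost when FGSC replicate 1 or 3 or Dif-FGSC replicate 1 or 3 was left out (0.0619 to 0.1).

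**Figure D5:**
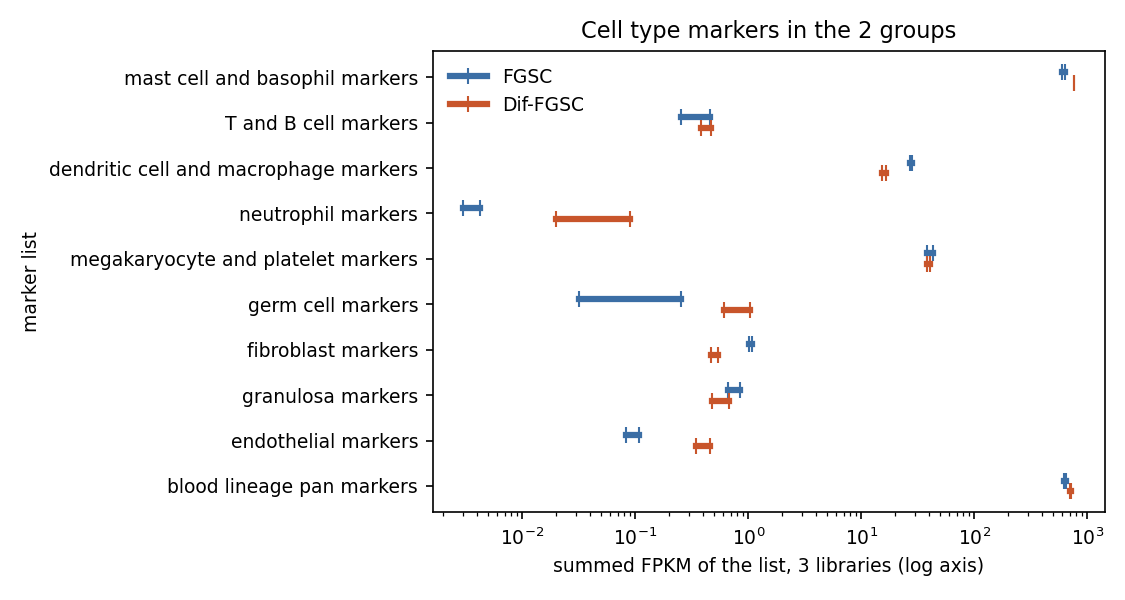
Summed FPKM of each list of cell type markers on a log axis, each bar running from the lowest to the highest of 3 libraries, for FGSC and Dif-FGSC; a sum of 0 is drawn at 0.003. Mast cell and blood cell markers stand at 596 FPKM or more in every library, while T and B cell, neutrophil, germ cell, fibroblast, granulosa and endothelial sums stay below 1.1.

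Of 15 mast cell and basophil markers 6 were tested, of which 5 rose and none fell, beside 36.5% and 28.6% of all tested genes. The sum of the 15 was 596 to 639 FPKM in FGSC and 762 to 768 in Dif-FGSC. Cpa3, a granule protease and the highest of the list, stood at 288 ± 19.0 and 301 ± 10.5 FPKM and was called only after quantile normalization (limma adjusted p = 0.00238). Gata2, a transcription factor of mast cells and blood progenitors, rose from 185 to 248 FPKM, Srgn, the granule proteoglycan serglycin, from 51.4 to 74.1, Il1rl1, the receptor for IL-33, from 9.74 to 16.4, and Mcpt8 from 0.596 to 8.21. Tpsb2, Mrgprb2 and Prss34 were listed at 0 in all 6 libraries, and 5 of the 15 stayed below 0.1 FPKM throughout. Of the others below the filter, Ms4a2 stood at means of 0.133 and 0.0596 FPKM in FGSC and Dif-FGSC and Hdc at 0.0744 and 0.0697. Cma1 stood at 0.0288 and 1.24 FPKM and Mcpt4 at 0 and 0.137. Fcer1a did not exceed 0.0431 FPKM and Tpsab1 0.0212 in any library. Of the markers of blood cells at large, Laptm5 rose from 99.8 to 187 FPKM, Cd52 from 2.33 to 4.08 and Was from 39.3 to 50.7, Cd48 fell from 26.0 to 7.68, and Lcp2 (177 and 176) was not called. The part of a change in cell makeup in the integrin differences was not tested.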

How the data were processed

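Poly(A) RNA libraries of 6 cell samples were analysed from 1 table of FPKM values deposited by the authors. HISAT2 4.8.2 and Cufflinks 2.2.1 with the mouse build mm9 are named without roles in the submitters' processing notes, and a KAPA stranded kit is named per the labels' protocols. Annotation, strand setting and any joining of transcripts: not given in the sources used here. The prefix con was read as control.

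Of 24674 rows, the higher of each of 2 duplicated symbols was kept. The test was limma 3.58.1 in R 4.3.3 (intensity trend, two-sided, Benjamini-Hochberg) on log2(FPKM + 1) for the 9162 genes with a mean of at least 1 FPKM. In simulated libraries of 9162 genes, 200 were changed, drawn only from genes above about 5 FPKM. The test recovered 36 of 50 changed 1.2-fold, 47 of 50 changed 1.5-fold and all 50 changed 2-fold. It made 14 false calls among the unchanged genes. The real data had far more calls, 3343 higher and 2622 lower, and genes from 1 to 5 FPKM were not covered. The labels do not say whether cultures were separate, and p-values may thus reflect technical spread alone. An exact permutation test of 3 against 3 libraries cannot give p below 0.1.

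Members, lists and tests were chosen with earlier results of these data known. Of each list, up to 4 called genes with the largest differences and a value above 0 in every library were named, and its highest gene. The highest gene of the T and B cell, neutrophil, fibroblast, granulosa and endothelial markers was left unnamed. Itga10, Itgad, Rap1a, Apbb1ip, Ilk, Icam1, Spp1, Vcam1, Madcam1, Fn1 and Cdh1 were named after their values were seen. The same holds for Ms4a2, Hdc, Cma1, Mcpt4, Fcer1a and Tpsab1. Of the symbols, 24235 matched the reference names, and Cd98 from the lists was not matched. Some genes of the lists are not reported here. Depth was estimated from low values of 3092 genes with 1 annotated transcript, with 73.2% to 78.5% of such values falling no further than 0.1 from whole fragments after the step was fitted to them. Fragment numbers take the longest GENCODE transcript as length and are rough. They would be too low for a gene listed as a mean over transcripts.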

Additional observations from a re-analysis of the deposited data

How the results depend on the processing

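The tested genes named above, other than the genes correlated with Itga2b and Itgb7, were refitted with a pseudocount of 0.1, without the filter, with a filter at 5 FPKM, with median-ratio scaling, after quantile normalization, with a replicate block and with 1 library left out. Only Fli1, Lcp2 and Spp1, none of which was called, changed direction. The log2 difference of Fli1 was -0.0172 with median-ratio scaling and -0.0596 after quantile normalization, and -0.0164 to 0.0621 with 1 library left out. That of Lcp2 was 0.0350 after quantile normalization and -0.0463 to 0.0376 with 1 library left out. That of Spp1 was -0.0104 with median-ratio scaling, -0.0530 after quantile normalization and -0.108 to 0.189 with 1 library left out. Without the filter the calls of Pf4 and Batf3 were lost (limma adjusted p = 0.0993 and 0.107). That of Batf3 was also lost with a pseudocount of 0.1 (0.0526). With the replicate block Itgb1, Snx17 (0.067) and Batf3 (0.0822) were no longer called. The causes were not tested. Without the filter 7 of the 10 integrin genes in place of 4 were past the threshold on the higher side, because Itgax, Itgae and Itgam then entered the test. Over the 6 fits that left out 1 library, 45 to 49 of the other genes of integrin function were called higher and 13 to 15 lower, and over all genes 2995 to 3390 higher and 2300 to 2573 lower. After quantile normalization 43 and 19 of the pathway genes were called higher and lower, and 2789 and 3185 of all genes. Whether the replicate numbers pair the libraries was not settled. The correlations of same-numbered deviations from the group means were 0.131, 0.0123 and 0.173. Libraries of replicates 1 and 3 correlated best with their own number, and those of replicate 2 did not. With the replicate block 3241 genes were called higher and 2557 lower, against 3343 and 2622 without it. The floor of 3 fragments, 0.0556 to 0.0868 FPKM for a transcript of 2000 bp, limits what can be said of Itgae, Itgax and Itgam in FGSC.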
